A study of Mus musculus with 16 samples.

Results

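The voltage-gated sodium channel genes examined here were 9 of the 49671 mouse genes in the count tables: the alpha (pore-forming) subunit genes Scn1a, Scn2a, Scn3a, Scn8a, Scn9a, Scn10a and Scn11a, and the beta (accessory) subunit genes Scn2b and Scn3b. They were chosen by name, with earlier results of these data known, and all 9 were found through their Ensembl identifiers. Single neurons of mouse dorsal root ganglia (DRG) had been isolated one to a well and sequenced by CEL-Seq2, a method that counts the 3′ end of each transcript once by a unique molecular identifier (UMI). The embryonic day 15.5 (e15.5) material came from PvtdTom mice, which carry tdTomato under the parvalbumin promoter, sorted by fluorescence into 10 libraries. The postnatal day 1 (p1) material came from Trpv1Cre; PvFlp; Ai65 mice (Trpv1Cre of the Basbaum or Hoon line) and PvCre; Ai14 mice, placed in 6 libraries. In the former, the recombinases Cre, driven by Trpv1, and Flp, driven by parvalbumin, together switch on tdTomato. The study reports that this labels proprioceptors of back muscles, and by its methods most p1 cells came from these mice. In PvCre; Ai14 mice, Cre driven by parvalbumin is enough, and proprioceptors of all muscle groups are labelled. The study's methods say that p1 cells were picked by hand, whereas the labels name sorting for both ages. Age therefore came with another mouse line, another mix of labelled proprioceptors, by the methods another way of isolation, and a longer digestion. These cannot be told apart in any comparison of e15.5 with p1. The line and the segmental level of each library were not given in its labels.

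Voltage-gated sodium channels open on depolarisation and carry the inward current of the action potential. An alpha subunit forms the pore, and beta subunits bind alpha subunits and alter their gating and placement in the membrane. In DRG neurons, Scn1a (Nav1.1) and Scn8a (Nav1.6) encode tetrodotoxin-sensitive channels of myelinated axons and their nodes, Scn9a (Nav1.7) a channel shared by many sensory neurons, Scn2a (Nav1.2) and Scn3a (Nav1.3) channels prominent in development, and Scn10a (Nav1.8) and Scn11a (Nav1.9) the tetrodotoxin-resistant channels typical of nociceptors.

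Of 1536 wells, 1240 held at least 10000 UMIs. Of these, 799 passed as sensory neurons with at least 100 UMIs per 1000000 UMIs of the well (counts per 1000000, CPM) of Avil and Isl1 together. Proprioceptors, the sensory neurons of muscle, were the wells with at least 500 CPM of Pvalb, Runx3 and Etv1 together, which gave 347 wells at e15.5 (11 to 71 per library) and 359 at p1 (11 to 83 per library). Ntrk3, a proprioceptor marker outside that rule, stood at a median of 1712 CPM in e15.5 and 854 CPM in p1 proprioceptor wells, against 102 CPM in the 87 remaining e15.5 sensory neurons. Only 6 such other neurons were found at p1, too few for a test. The median depth was 111001 UMIs per e15.5 proprioceptor well, 55567 per p1 proprioceptor well and 39071 per other e15.5 neuron. All libraries reused one set of 96 well barcodes, so that wells were told apart by library. UMIs were summed per library and class, and the library was the replicate. Nothing in the labels says that libraries came from separate animals, so the p-values measure the spread between these libraries.

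Of these genes, 6 lie in 2 clusters of the GRCm38 genome (GENCODE M21 gene models). Scn3a (chr2:65457118-65567627, minus strand), Scn2a (chr2:65620771-65767447, plus), Scn1a (chr2:66270778-66440840, minus) and Scn9a (chr2:66480080-66634962, minus) are neighbours on chromosome 2. Scn10a (chr9:119608456-119719322, minus) and Scn11a (chr9:119753759-119825456, minus) are neighbours on chromosome 9. Scn2b (chr9:45117782-45130070, plus) and Scn3b (chr9:40269217-40291618, plus) lie elsewhere on chromosome 9, and Scn8a (chr15:100869858-101045938, plus) on chromosome 15. Whether the counting used strand was not given in the sources used here. The antisense genes that overlap members held few UMIs: over all wells Gm13630 had 91 beside 23374 of Scn1a, and Gm13629 had 85 beside 59325 of Scn9a. Gm13627, a gene on the same strand inside Scn9a, had 1161.

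The sequences before the starts of Scn1a and Scn2b are shown because these were the alpha and the beta member with the largest rise between the ages described below. They are RefSeq sequences on GRCm38.p6, 5′ to 3′ along the gene's strand and ending just before the GENCODE gene start, with capitals for the RUNX core motif TGTGGT read on either strand; Runx3, a RUNX factor, is needed for proprioceptor development.
Scn1a (chr2:66440841-66441087, minus strand): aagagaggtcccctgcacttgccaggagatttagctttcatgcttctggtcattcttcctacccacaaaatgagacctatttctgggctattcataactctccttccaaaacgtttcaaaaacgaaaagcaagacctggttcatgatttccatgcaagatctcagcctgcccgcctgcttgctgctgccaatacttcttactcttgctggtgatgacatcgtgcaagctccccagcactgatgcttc
Scn2b (chr9:45117626-45117781, plus strand): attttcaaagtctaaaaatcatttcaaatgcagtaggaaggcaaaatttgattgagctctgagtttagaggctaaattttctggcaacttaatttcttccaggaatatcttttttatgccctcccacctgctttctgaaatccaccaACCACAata
The 250 bases before the start held TGTGGT on either strand in 14% of all 32851 RefSeq promoters and in 2 of the 9 promoters of the 7 members with an entry, 1 of Scn2a and that of Scn2b. The ETS core CCGGAA (both strands), the letters bound by the Etv1 family, was in 12% of all promoters and in 0 of the 9. These matches describe letters only.

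Between e15.5 and p1, proprioceptors gained Scn1a, Scn8a and Scn2b, gained a little Scn2a and Scn9a, and lost Scn3b. In the edgeR quasi-likelihood fit of 13982 genes, with p-values adjusted by Benjamini-Hochberg over all of them, 5 of the 9 members rose, 1 fell and 3 did not pass the threshold of 0.05. Change with age was common: 62.6% of all genes tested passed, 30.7% upward and 31.9% downward, so 6 of 9 is read against that background. Since the members were chosen with earlier results of these data known, the count only describes them. The members' median log2 fold change was 0.63, against -0.03 over all genes.

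Scn1a had the largest change among the members. Its levels in the 10 e15.5 libraries ran from 88.8 through a median of 102 to 126 CPM. In the 6 p1 libraries they ran from 593 through 676 to 729 CPM. The lowest p1 library stood above every e15.5 library, and the means were 104 ± 14.7 CPM (SD, n = 10) and 667 ± 63.2 CPM (SD, n = 6). The log2 fold change was 2.92 (SE 0.095, edgeR adjusted p = 7.92e-15), or 7.56-fold.

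**Figure D1:**
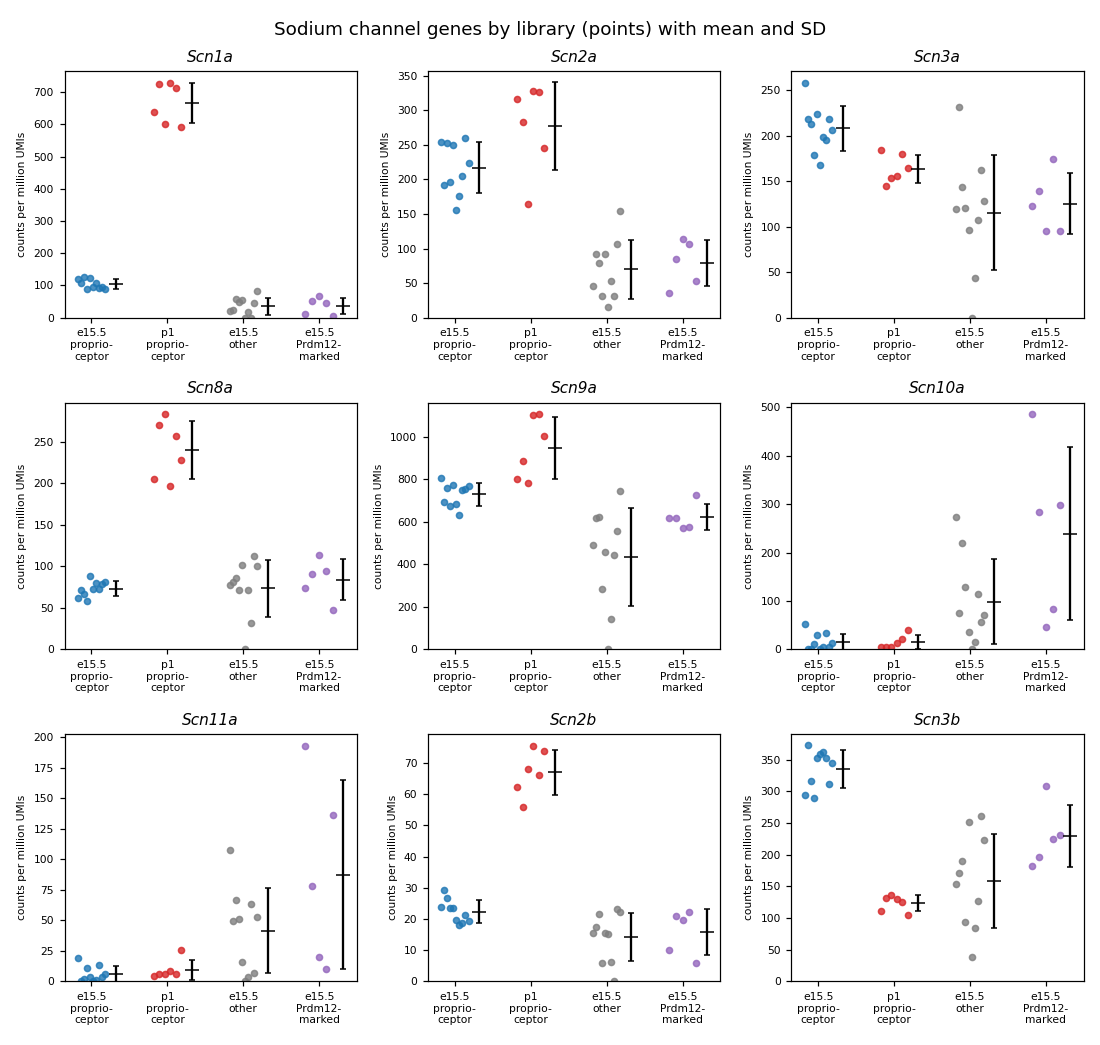
Levels of the 9 sodium channel genes in CPM (linear axis, 1 panel a gene), with 1 point per library sum of at least 3 wells and the mean ± SD beside each group: e15.5 proprioceptors (10 libraries), p1 proprioceptors (6), other e15.5 sensory neurons (10) and those of them with at least 100 CPM of Prdm12 (5). The p1 points lie above all e15.5 proprioceptor points for Scn1a, Scn8a and Scn2b and below them for Scn3b.

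Scn8a, the main nodal channel of adult myelinated axons, ran from 58.7 through 73.2 to 88.2 CPM at e15.5 and from 196 through 243 to 283 CPM at p1. The groups did not overlap. The log2 fold change was 1.91 (SE 0.099, edgeR adjusted p = 4.09e-12).

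Scn2b, whose protein links covalently to alpha subunits, ran from 18 through 22.4 to 29.4 CPM at e15.5 and from 55.9 through 67.1 to 75.4 CPM at p1. Again every p1 library was above every e15.5 library. The log2 fold change was 1.82 (SE 0.11, edgeR adjusted p = 2.52e-11).

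Scn3b, which encodes a beta subunit that binds without a covalent bond, moved the other way. It ran from 289 through 349 to 373 CPM at e15.5 and from 105 through 128 to 136 CPM at p1, without overlap. It fell by 1.23 on the log2 scale (SE 0.088, edgeR adjusted p = 4.10e-10). In all, 4 of 9 members had ages that did not overlap in CPM, against 27.3% of all genes tested.

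Scn9a was the most abundantly tagged member at both ages and rose by a smaller amount. It ran from 631 through 752 to 804 CPM at e15.5 and from 782 through 944 to 1105 CPM at p1. The groups overlapped, since 2 p1 libraries lay within the e15.5 range. Its log2 fold change was 0.62 (SE 0.092, edgeR adjusted p = 8.78e-06).

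Scn2a ran from 157 through 214 to 260 CPM at e15.5 and from 164 through 299 to 328 CPM at p1. The overlap came from p1 libraries 3 and 6, at 164 and 246 CPM, and library 3 was the shallowest, with 11 proprioceptor wells. The log2 fold change was 0.63 (SE 0.13, edgeR adjusted p = 0.000351).

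Scn3a did not pass, at 208 ± 25.2 CPM (SD, n = 10) at e15.5 and 163 ± 15.6 CPM (SD, n = 6) at p1. The fitted log2 fold change was -0.11 (SE 0.088, edgeR adjusted p = 0.310). This call depended on scaling: with library size alone in place of TMM factors, which moved the median of all genes from -0.03 to -0.26 and the share of calls that were upward from 49% to 33.2%, Scn3a was -0.34 (adjusted p = 0.00249), and with every well thinned to 10000 UMIs it was 0.25. The other 6 calls kept their direction and passed under both.

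The share of the UMIs of the 7 alpha genes that each held shifted with age. Scn1a went from 7.74% ± 0.93 (SD, n = 10 libraries) to 28.8% ± 2.02 (SD, n = 6), and Scn8a from 5.47% ± 0.80 to 10.5% ± 2.20. Scn9a went from 54% ± 2.02 to 40.7% ± 2.84, Scn3a from 15.4% ± 0.97 to 7.10% ± 0.91 and Scn2a from 15.9% ± 1.5 to 11.9% ± 2.20. The ranges over libraries did not overlap for Scn1a, Scn8a, Scn9a and Scn3a. Their summed level went from 1353 ± 132 CPM to 2318 ± 228 CPM. Since each UMI marks 1 transcript end, these values are not divided by transcript length, and they order genes by counted 3′ tags. No test was run on the shares, which are descriptions of the same counts.

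**Figure D2:**
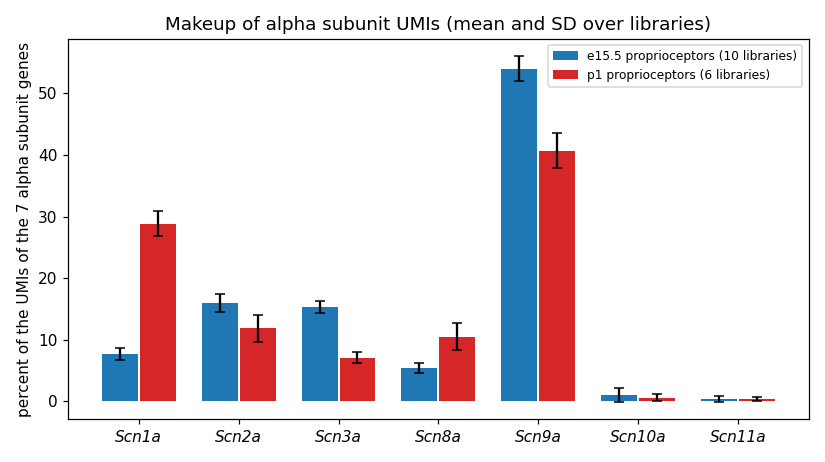
Percent of the UMIs of the 7 alpha subunit genes that each gene held in proprioceptors (vertical axis), as mean bars from 0 with SD over 10 e15.5 libraries (blue) and 6 p1 libraries (red). Scn1a goes from 7.74% to 28.8%, while Scn9a goes from 54% to 40.7%.

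The number of wells with a UMI followed the levels. After thinning each well to 10000 UMIs, Scn1a was found in 52.4% of e15.5 proprioceptor wells (exact 95% binomial interval 47% to 57.8%) and in 100% of the 359 p1 wells (99% to 100%). Without thinning the shares were 85.3% and 100%. Scn8a went from 43.2% (37.9% to 48.6%) to 85% (80.8% to 88.5%) and Scn2b from 15.9% (12.2% to 20.1%) to 51% (45.7% to 56.3%) of thinned wells, while Scn3b went from 89.9% (86.3% to 92.9%) to 63.2% (58% to 68.2%). The intervals cover counting error only. For comparison, 437 e15.5 wells had at least 10000 UMIs but under 100 CPM of Avil and Isl1 (median depth 26755 UMIs). They were planned as wells that should lack these genes. Their thinned shares ranged from 1.37% for Scn10a and Scn11a to 23.6% for Scn2a, with Scn1a at 5.95% and Scn9a at 12.8%. Single libraries of them reached 115 CPM of Scn2a and 147 CPM of Scn3a, so they were not free of all members. Whether some of them were neurons was not tested. Those wells held a median of 28732 CPM of 5 connective tissue genes, although they had been sorted as tdTomato-positive.

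Scn10a and Scn11a were near the low level of those wells in nearly all proprioceptors. Scn10a ran from 0 through 8.33 to 52.1 CPM at e15.5 and from 4.12 through 9.20 to 40.7 CPM at p1. Scn11a ran from 0 through 3.61 to 19.4 CPM at e15.5 and from 3.99 through 5.89 to 25.6 CPM at p1. Their age comparisons were log2 fold changes of 0.25 (SE 0.67, edgeR adjusted p = 0.765) and 0.88 (SE 0.58, edgeR adjusted p = 0.192), with overlapping groups. Without p1 library 6, the highest for both, the values were -0.33 for Scn10a and 0.21 for Scn11a, and neither passed.

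The UMIs of both genes were concentrated in few wells. At e15.5, 94.4% of the 665 Scn10a UMIs and 81.4% of the 236 Scn11a UMIs came from 10 of the 347 proprioceptor wells, and at p1 91.8% of 392 and 81.9% of 237 came from 10 of 359. Some of the e15.5 wells also held Prdm12, a regulator of nociceptor development. The 10 e15.5 proprioceptor wells with at least 100 CPM of Prdm12, which came from 7 libraries, held 78.5% of the Scn10a and 65.7% of the Scn11a UMIs. No p1 proprioceptor well reached that level of Prdm12, so the p1 UMIs were all in wells below it. The Pvalb, Runx3 and Etv1 sum of the 10 wells had a median of 688 CPM, against 2770 CPM in the other 337 e15.5 proprioceptor wells, and their median depth was 87976 against 111168 UMIs. Doublet calling was not run, and whether these wells held 1 or more cells was not tested.

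In the remaining e15.5 proprioceptor wells Scn10a was at 3.82 CPM and Scn11a at 2.16 CPM. In the 437 e15.5 wells with under 100 CPM of Avil and Isl1 these genes were at 1.28 and 0.88 CPM. Leaving out the Prdm12 wells, which removed 10 wells at e15.5 and 0 at p1, turned both age comparisons into calls, with log2 fold changes of 2.58 for Scn10a (edgeR adjusted p = 0.000559) and 2.52 for Scn11a (edgeR adjusted p = 0.000160). Because the removed wells held most e15.5 UMIs of both genes, the filter lowered the e15.5 side alone. These calls follow from that choice and are not evidence of a rise with age. Over all alternatives Scn10a gained a call under 1, this filter, and Scn11a under 2, this filter among them. The other members changed little without those wells, with Scn1a at 2.88 and Scn3b at -1.25.

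**Figure D3:**
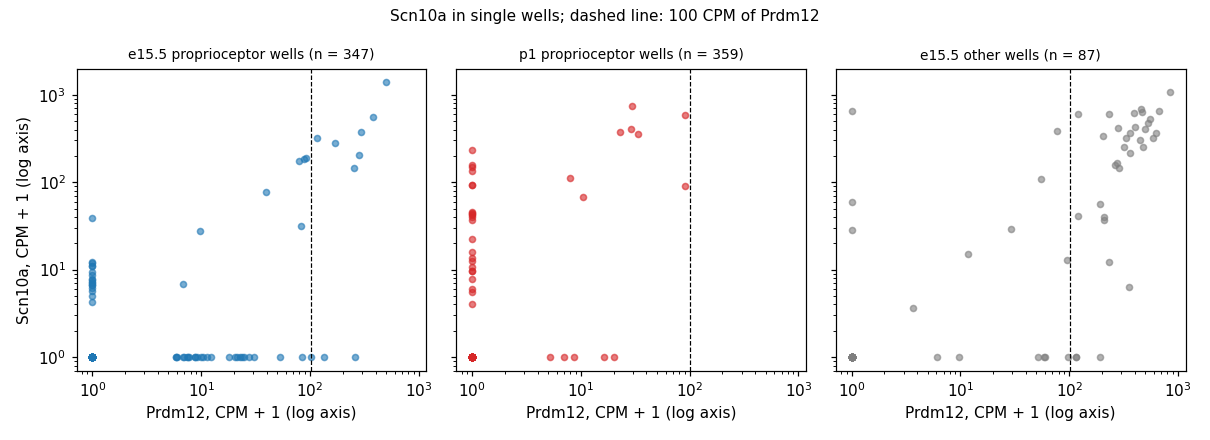
Scn10a against Prdm12 in single wells (both in CPM + 1, log axes), for 347 e15.5 proprioceptor wells, 359 p1 proprioceptor wells and 87 other e15.5 sensory neurons; the dashed line marks 100 CPM of Prdm12. In proprioceptors 10 wells lie on or to the right of the line at e15.5 and 0 at p1.

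The 87 other e15.5 sensory neurons, in 10 libraries of 4 to 18 wells, held more Scn10a and Scn11a than proprioceptors and less Scn1a, Scn2a, Scn3a and Scn3b. In the edgeR fit of 11075 genes 28.8% passed, 15.3% higher and 13.5% lower in the other neurons, and 6 of the 9 members passed. These other wells were mixed: 40 of 87 held at least 1000 CPM of the connective tissue genes and 37 had only 100 to 200 CPM of Avil and Isl1. Over libraries, their summed connective tissue level ran from 42.8 to 30927 CPM and their summed hemoglobin level from 1.38 to 18759 CPM, against 37.1 to 664 and 5.01 to 111 CPM in proprioceptors. The class is therefore named by its rule, and each call against it is given with and without the connective tissue wells. Without those wells 16 of the 20 library sums remained, so the 2 values of a pair rest on different sets of libraries.

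Of the 9 members 3 did not overlap in CPM between the classes, and the share of all genes without overlap was not computed here. Scn2a was lower in the other neurons. It ran from 15 through 66.1 to 155 CPM there, just below the lowest proprioceptor library at 157 CPM. Its log2 fold change was -1.51 (SE 0.24, edgeR adjusted p = 6.89e-05). Scn1a ran from 0 through 33.5 to 82.9 CPM, also without overlap, and differed by -1.31 (SE 0.26, edgeR adjusted p = 0.000663). Without the connective tissue wells these differences were -1.23 and -0.86, and both passed.

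Scn3b, the third without overlap, differed by -0.998 (SE 0.20, edgeR adjusted p = 0.000783), and by -0.59 without the connective tissue wells. Scn3a differed by -0.77 (SE 0.25, edgeR adjusted p = 0.0223), and by -0.52 (edgeR adjusted p = 0.00301) without those wells. The Scn3a call was lost under 4 alternatives: with wells thinned to 10000 UMIs (-0.41, adjusted p = 0.224), with the study's mitochondrial filter (-0.62, adjusted p = 0.0693), and without e15.5 library 1 (adjusted p = 0.0644) or library 5 (adjusted p = 0.0643).

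Scn10a was higher in the other neurons, running from 0 through 72.9 to 273 CPM, with a log2 fold change of 2.76 (SE 0.60, edgeR adjusted p = 0.00155). Scn11a ran from 0 through 50.2 to 108 CPM and differed by 2.88 (SE 0.56, edgeR adjusted p = 0.00053). The classes overlapped for both genes, and e15.5 library 6 had 0 CPM of both in either class. Without the connective tissue wells the values were 3.28 and 3.29. Without the Prdm12 wells among the proprioceptors Scn10a was at 5.05 and Scn11a was too low to be tested. That filter left the Prdm12 wells of the other neurons in, so it widened the Scn10a difference by its construction.

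Scn8a, Scn9a and Scn2b did not pass, at 0.15, -0.70 and -0.44 (edgeR adjusted p = 0.622, 0.108 and 0.124). They gained a call under 2, 4 and 1 alternatives. Without the connective tissue wells Scn8a was higher in the other neurons (0.49, edgeR adjusted p = 0.00139) and Scn9a lower (-0.30, edgeR adjusted p = 0.0105). Without e15.5 library 6, where the 5 other wells held 0 CPM of Scn9a, Scn9a was at -0.57 (adjusted p = 0.0274).

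**Figure D4:**
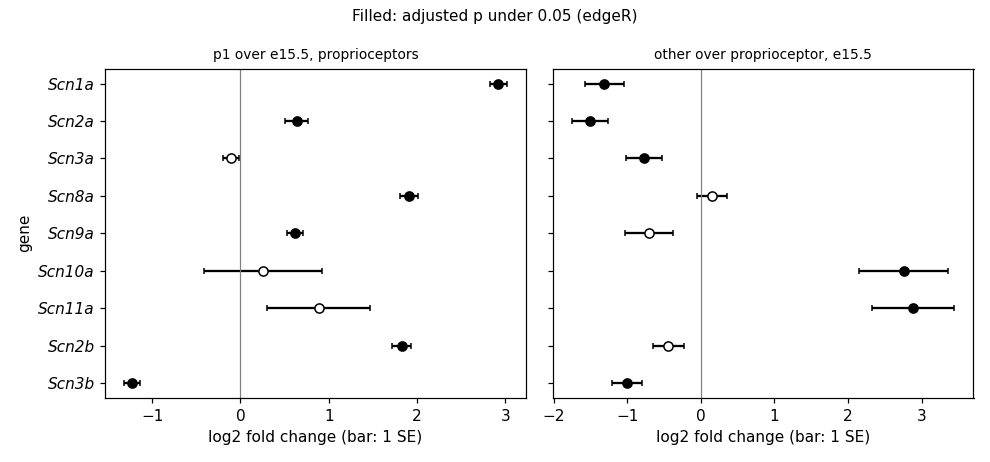
Fitted log2 fold changes of the 9 members (horizontal axis, bars of 1 SE) for p1 over e15.5 proprioceptors and for other over proprioceptor wells at e15.5, with filled points where the edgeR adjusted p is under 0.05. Scn1a is at 2.92 for p1 over e15.5 and at -1.31 for other over proprioceptor wells, where Scn10a and Scn11a reach 2.76 and 2.88.

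The tetrodotoxin-resistant genes of the other e15.5 neurons lay largely in the 33 wells with at least 100 CPM of Prdm12, a group formed after the data were seen and described without a test. In the 5 libraries with 3 or more such wells, Scn10a was at 485, 283, 46.5, 83.2 and 297 CPM in e15.5 libraries 1, 3, 5, 9 and 10, and Scn11a at 193, 77.9, 19.7, 10.2 and 137 CPM. Libraries 5 and 9 were lowest for both, and 1 of them overlapped with the proprioceptor range for each gene, library 5 for Scn10a and library 9 for Scn11a. Both genes were found together in 26 of the 33 wells, Scn10a alone in 4 and neither in 3. Among these wells 3 held at least 1000 CPM of the connective tissue genes.

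In the same wells Scn1a ran over the 5 libraries from 5.94 through 45.8 to 66.1 CPM, below the e15.5 proprioceptor range, and Scn2a from 35.8 through 84.9 to 114 CPM, also below it. Scn9a was at 622 ± 62.4 CPM (SD, n = 5), against 729 ± 55.2 CPM (SD, n = 10) in proprioceptors, and Scn3a at 125 ± 33.5 CPM (SD, n = 5). The 6 other neurons at p1 (3 of them from 1 library) held 345 CPM of Scn1a, 359 CPM of Scn8a, 982 CPM of Scn9a and no UMI of Scn10a.

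Wells were also compared by Gabrg1 and Tox, genes the study uses for hindlimb and back muscle proprioceptors. Gabrg1-only wells held at least 1 UMI of Gabrg1 and 0 of Tox, and Tox-only wells the reverse, so the split depends on depth. There were 4 Gabrg1-only and 10 Tox-only library sums at e15.5, and 4 and 5 at p1. Mouse line (at p1) and segmental level may differ between the kinds, and these cannot be told apart from kind here. Of the 9 members 0 passed between Gabrg1-only and Tox-only proprioceptor wells at e15.5, at p1 or in the difference between the ages, by edgeR or DESeq2, where 5.43%, 1.52% and 0.0898% of 12249 genes passed edgeR. At an unadjusted p under 0.05 there were 0, 4 and 3 members by edgeR and 1, 3 and 2 by DESeq2. Of all 12249 genes, 2196, 1396 and 865 were under it by edgeR and 1965, 1135 and 734 by DESeq2. Of the 91 Gabrg1-only wells at p1, 55 came from p1 library 2. With the library as a block, which kept only libraries with both kinds (14 sums over both ages), Scn11a passed at p1 (log2 fold change -6.78, edgeR adjusted p = 0.0499). Over all p1 sums, blocked or not, the library means were 1.78 CPM in Gabrg1-only (n = 4) and 18.1 CPM in Tox-only wells (n = 5). The Gabrg1-only sums had a median of 0 and a maximum of 7.12 CPM. They include p1 library 2, which had no Tox-only sum and so was not in the blocked fit. The size of the blocked value rests on counts near 0. Without the block the 4 members with an unadjusted p under 0.05 at p1 were Scn8a at 0.43 (SE 0.17), Scn11a at -2.29 (SE 0.99), Scn10a at -2.91 (SE 1.40) and Scn1a at 0.32 (SE 0.15), with edgeR adjusted p from 0.275 to 0.430.

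Other family genes were followed in the same fits. Scn4b, whose protein is linked to resurgent sodium current, rose from 1.90 ± 1.89 to 47.4 ± 18.2 CPM, a log2 fold change of 4.54 (SE 0.38, edgeR adjusted p = 3.42e-09). Scn7a, a sodium-sensing relative, was at 323 ± 44.3 and 332 ± 61.1 CPM and did not pass (log2 fold change 0.24, edgeR adjusted p = 0.0548), although it did under 9 alternatives, among them DESeq2 (adjusted p = 0.0475) and wells thinned to 10000 UMIs (0.61). Scn4a, the muscle channel, had 0 UMIs in the 347 e15.5 wells, which allows a share of wells with a UMI of up to 0.865%, counting error only, and does not limit the share of cells that express it. It had 2 UMIs at p1.

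Genes for proteins that place, modify or work beside sodium channels were taken from fixed lists. The lists were chosen with earlier results of these data known, so their counts and medians only describe them. Of 24 tested with age, 15 rose, 5 fell and 4 did not pass, where 30.7% of all genes tested rose and 31.9% fell. In the initial segment and node scaffold 7 of 8 rose: Cntnap1 (paranodal Caspr, 1.57), Nfasc (neurofascin, 1.45) and Ank2 (ankyrin B, 1.24) had the largest changes, while the adhesion gene Nrcam fell by 0.96 on the log2 scale. All 4 genes of the sodium leak channel complex rose, led by Unc80 (2.35), Nalcn, the pore (0.89), and Fam155a (0.78). The call of the fourth, Unc79, was lost with library size alone (0.11, adjusted p = 0.346), with no filter on low counts (0.23, adjusted p = 0.129) and with the library number as a block (0.29, adjusted p = 0.0949). Of 3 beta subunit genes of the sodium pump, Atp1b1 (1.40) and Atp1b2 (0.79) rose and Atp1b3 did not pass.

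Of the FGF homologous factors, which bind the channels' C-terminal tails, Fgf12 (0.94) and Fgf11 (0.54) rose, Fgf13 fell by 0.41 on the log2 scale, and Fgf14 was too low to be tested. Of the trafficking and turnover genes 3 did not pass, and Rangrf, Nedd4 (a ubiquitin ligase) and S100a10 (p11, a partner of Nav1.8) fell by 2.44, 0.35 and 0.29 on the log2 scale. List medians were 1.13 for the scaffold, 0.84 for the leak channel, 0.79 for the pump, 0.54 for the FGF factors and -0.23 for trafficking, against -0.03 over all genes. Atp1b2 did not pass with the library number as a block (0.43, adjusted p = 0.206), with thinned wells (0.60, adjusted p = 0.148), with library size alone (0.56, adjusted p = 0.0929) or without p1 library 1 or 6 (adjusted p = 0.0523 and 0.0588). S100a10 did not pass with that block (adjusted p = 0.0535), and Fgf11, Fgf13 and Nrcam did not pass with thinned wells (adjusted p = 0.0551, 0.0758 and 0.111).

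**Figure D5:**
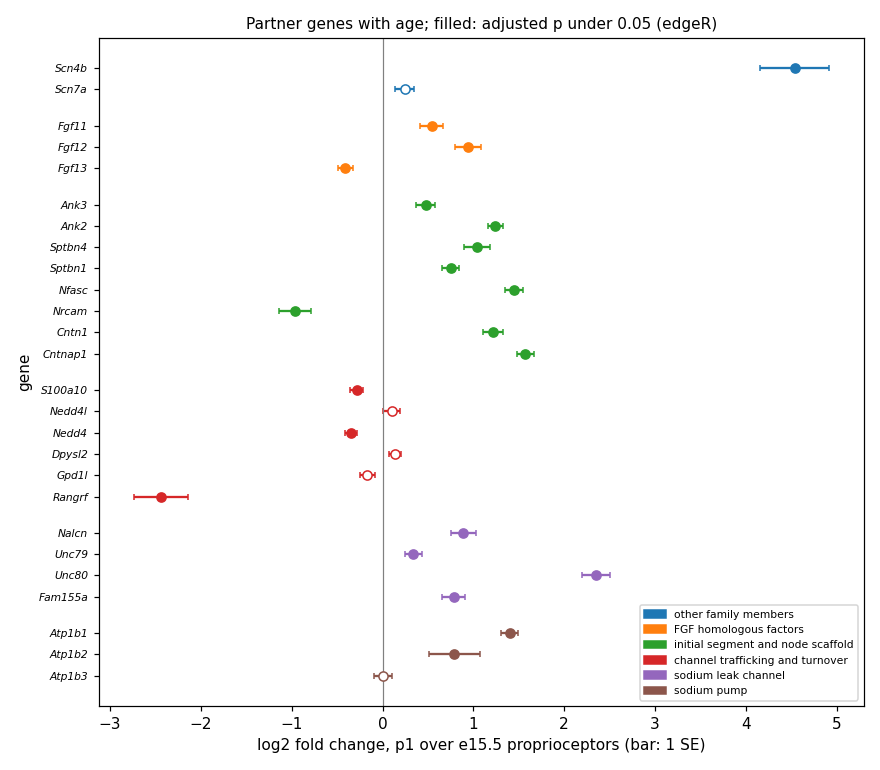
Fitted log2 fold changes (p1 over e15.5 proprioceptors, bars of 1 SE) of 2 other family genes and 24 partner genes, coloured by list, with filled points where the edgeR adjusted p is under 0.05. Scaffold genes lie to the right except Nrcam, and Scn4b reaches 4.54.

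Between classes at e15.5, 4 of 24 partner genes were higher in the other neurons, 5 were lower and 15 did not pass, where 15.3% of all genes tested were higher and 13.5% lower. Fam155a, an auxiliary subunit of the leak channel, was lower there (-2.56, SE 0.24, edgeR adjusted p = 7.37e-08), as were Atp1b1, a pump subunit (-0.92), Nalcn (-0.68), S100a10 (-0.59) and Nedd4l (-0.58). Nrcam (1.15), Gpd1l (0.63), Atp1b3 (0.57) and Nedd4 (0.57) were higher. None of the 3 FGF factors tested passed in that comparison by edgeR, and 0 had an unadjusted p under 0.05, against 4436 of all 11075 genes. Scn7a (0.33) did not pass, and without the connective tissue wells Scn7a was higher in the other neurons (0.91, adjusted p = 2.16e-06). Without the connective tissue wells Nedd4l did not pass (-0.26, adjusted p = 0.156), while Fam155a (-2.66), Atp1b1 (-0.56), Nalcn (-0.53), S100a10 (-0.33), Nrcam (1.54), Gpd1l (1.05), Atp1b3 (0.72) and Nedd4 (0.35) did. Several of these calls depended on other choices too. Nedd4l did not pass with thinned wells (-0.10, adjusted p = 0.782), with Avil and Isl1 of 200 CPM, with a proprioceptor score of 250 or 1000 CPM or with wells of at least 20000 UMIs (adjusted p from 0.0564 to 0.205). Gpd1l did not pass with the library as a block (0.46, adjusted p = 0.190), with Avil and Isl1 of 50 CPM (0.34, adjusted p = 0.377), with no filter on low counts, without the wells with glia genes or by DESeq2 (adjusted p from 0.0507 to 0.168). Nalcn did not pass with Avil and Isl1 of 200 CPM (adjusted p = 0.0542), nor Atp1b3 with no filter on low counts (adjusted p = 0.0657). Leaving out single e15.5 libraries ended the calls of Gpd1l (libraries 1, 2, 3, 5, 8, 9 or 10, adjusted p from 0.0547 to 0.143), Nedd4l (1, 2, 4, 5 or 7, from 0.0502 to 0.0827) and Nalcn (1 or 4, 0.0507 and 0.0645).

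Between Gabrg1-only and Tox-only proprioceptors Unc80, a large scaffold protein of the leak channel, passed at p1, where it was higher in Gabrg1-only wells (1.01, SE 0.14, edgeR adjusted p = 0.000173). At e15.5 its value was -0.50 (edgeR adjusted p = 0.0543), and the difference between the ages was 1.51 (SE 0.21, edgeR adjusted p = 0.00124). Without p1 library 2 these were 0.95 (adjusted p = 0.00283) at p1 and 1.47 (adjusted p = 0.00471) between the ages. With wells thinned to 10000 UMIs neither passed (0.84 and 0.71). With the library as a block Unc80 passed at p1 (0.87, adjusted p = 0.0125) and between the ages (1.25, adjusted p = 0.0312). At e15.5 Atp1b2, a pump gene also expressed by glia, was lower in Gabrg1-only wells (-1.94, SE 0.37, edgeR adjusted p = 0.00161). Of the Gabrg1-only wells 4 of 53 held at least 1000 CPM of the glia genes, against 40 of 159 Tox-only wells, and without those wells Atp1b2 was at -1.60 (adjusted p = 0.0168).

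Over the 27 sums of classes and libraries, with libraries, ages and depth shared among points, the genes reported here that were most like each member by Pearson r of log2(CPM + 1) among 10546 genes were as follows. Scn10a and Scn11a were each other's nearest gene (r = 0.91), followed by Ldb2 (0.84) for Scn10a and Greb1 (0.83) for Scn11a. Scn1a was nearest to Lgi3 (0.97), Plppr4 (0.97) and Unc80 (0.96), and Scn2a to Cplx1 (0.96), Cox7b (0.95) and Dnm1 (0.95). Scn8a was nearest to Napb (0.98), Scn9a to Atp6v0e2 (0.99), Scn3a to Jakmip2 (0.98), Scn2b to Pitpnm1 (0.95) and Scn3b to Eps15 (0.96).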

How the data were processed

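The authors demultiplexed, mapped and counted the reads with scruff, and the deposited tables hold whole UMI counts per Ensembl gene and well, not normalised; per the labels the build was mm10 (GRCm38). Identifiers were named with GENCODE M21 (49326 of 49671 matched). The members and gene lists were chosen with earlier results of these data known. Wells were filtered and classed as the report states, and UMIs were summed per library and class where at least 3 wells were present. Sums were tested with edgeR 4.0.16 in R 4.3.3 (quasi-likelihood, two-sided, TMM factors, filterByExpr, Benjamini-Hochberg over all genes tested, threshold 0.05), with DESeq2 1.42.0 as an alternative; the test was checked on simulated data. Fits had no block. Library totals ran from 386517 to 9299431 UMIs. Wells of 1 library feed both classes or kinds of a comparison, so the library pairs them: deviations of the sums of 1 library correlated with a median r of 0.27 (proprioceptors and others) and 0.34 (Gabrg1 and Tox). The rule for named genes took all members, other genes of the family and, per list, direction and comparison, the 3 largest changes past the threshold. Alternatives without connective tissue wells or Prdm12 wells, and the Prdm12 group itself, were chosen after seeing the data. Some genes of the lists, and the planned comparison of proprioceptors with marker-defined subgroups of other neurons, which rested on one of them, are not reported here. No library pair agreed within sampling noise.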

Additional observations from a re-analysis of the deposited data

Results flagged for a closer look

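In groups of 4 to 10 libraries, the highest and lowest library of each member was set against Dixon's critical value at 95%, and 1 of 36 groups was past it; chance passes about 1 in 20. Scn11a in p1 proprioceptors was at 25.6 CPM in library 6, with the next library at 8.56 CPM. Among members, family and partner genes, the difference between Gabrg1-only and Tox-only wells itself differed between the ages for Unc80, by 1.51 on the log2 scale (edgeR adjusted p = 0.00124), with -0.50 at e15.5 and 1.01 at p1. Of the 91 Gabrg1-only wells at p1, 55 came from p1 library 2, and without it the Unc80 value was 1.47.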

How the results depend on the processing

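Of 286 member values under alternatives in the age comparison, 279 kept direction and call, 4 gained a call and 3 changed sign without passing: Scn3a with thinned wells (0.25), and Scn10a with a 250 CPM proprioceptor score (-0.15) or without p1 library 6 (-0.33; leaving out 1 library at a time gave -0.33 to 0.63). Against other neurons 212 of 224 kept direction and call, 7 gained a call and 4, all of Scn3a, lost one. The gained calls were 4 of Scn9a, 2 of Scn8a and 1 of Scn2b. Scn8a, not called, changed sign with Avil and Isl1 of 50 CPM (-0.12), and the cause was not tested. Members called were 6 with age and 6 against other neurons. With wells thinned to 10000 UMIs, where fewer members could be tested, 3 were called against other neurons. In that setting 1099 of all 2738 genes tested passed. The counts of 3 and 6 therefore rest on different sets of members. Counts of all genes called moved by over 1.5 times with thinning (from 8759 to 4329 with age, from 3186 to 1099 against other neurons, and to 18, 4 and 0 for Gabrg1 against Tox at e15.5, p1 and between the ages) and with Avil and Isl1 of 50 CPM (4987 against other neurons). For Gabrg1 against Tox the count went from 665 at e15.5 to 260, 406 and 392 without e15.5 library 8, 9 or 10, from 186 at p1 to 352 without a count filter, 85 with the block and 300, 62, 49 and 89 without p1 library 1, 2, 5 or 6, and from 11 between the ages to values between 0 and 87. With the library as a replicate block 1 member was called between Gabrg1-only and Tox-only wells at p1, and no member call changed in the other comparisons; e15.5 and p1 libraries share only a number (r from -0.28 to 0.29), and blocking on it left 6 calls. Depth limits Scn10a and Scn11a, which in most proprioceptors were near their level in wells with little Avil and Isl1.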
